A study of Mus musculus with 4 samples.

Results

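The 10 genes described here set or mark the lineage of lung epithelium and of lung adenocarcinoma, and they were taken by name from the 35275 genes of the expression table. They are the lung lineage factors Nkx2-1, Foxa1 and Foxa2, the progenitor factors Sox9 and Sox2, the embryonic factor Hmga2, the gastrointestinal factor Hnf4a, and Gkn2, Ctse and Lgals4, which are genes of stomach and gut epithelium. They were measured by RNA sequencing in lung tumours of Nrf2 -/- (knockout, KO) mice and of Nrf2 +/+ (wild-type, WT) mice, with 2 libraries of each genotype. All mice were Balb/c and had received vinyl carbamate, which causes lung tumours, as 2 or 4 injections of 16 mg/kg. Tumours were taken 40 to 44 weeks after the carcinogen was started, and each library came from RNA of 3 to 4 pooled tumours. The labels do not say which library had which number of doses or weeks, they give no ages, and no lung without tumour is part of the comparison. The loss of Nrf2 was in the whole animal, so tumour cells and host cells both lacked it.

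NKX2-1 is a homeodomain transcription factor that specifies the lung and keeps alveolar and airway genes active in the adult, together with the forkhead factors FOXA1 and FOXA2. In mouse models of lung adenocarcinoma, tumours that lose NKX2-1 take on a gastric-like state in which HNF4A and stomach genes are expressed, and tumours that advance to metastasis can express HMGA2, a chromatin protein of the embryo. SOX9 marks the distal tip cells of the developing lung and SOX2 its proximal airway.

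Values were FPKM, reads per kilobase of gene and per 1e6 reads, and those of single genes can be compared with each other because they are scaled to length. The FPKM steps gave depths of 17.98 and 16.89 M reads (M is 1e6) in KO 1 and KO 2, against 21.66 and 21.22 M in WT 1 and WT 2. Nfe2l2, which encodes NRF2, stood at 3.66 and 2.96 FPKM in the KO libraries, against 96.3 and 87.9 FPKM in the WT libraries, so each library's level went with its label. All 8 markers of alveolar type 2 cells, the surfactant-producing cells, were above 0 in every library and summed to 105170 to 120350 FPKM, so the tissue carried the RNA of lung epithelium. KO and WT were compared with limma on log2(FPKM + 1) over the 13147 genes that reached 1 FPKM in at least 2 libraries. Genes with an adjusted p under 0.05 are named as called. There were 15, or 0.114% of those tested, of which 10 were higher (0.0761%) and 5 lower in KO (0.0380%). The split was 6 higher and 5 lower with quantile normalization. The count depended on single libraries, with 221 calls without KO 1 and 49 without KO 2, and it was 1 with no filter on low values. Exact permutation of 4 libraries allows no two-sided p below 0.333, so every p-value is from limma's model. In bulk tumour RNA, fewer cells of a type and less RNA per cell cannot be told apart.

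Of the 10 genes, 9 passed the filter and 0 were called, while limma's unadjusted p was under 0.05 for 3 of them, against 15.4% of all tested genes. Hmga2 did not pass, and Sox2 passed only through its 2 KO libraries, so that it had to differ to be tested. Both KO libraries lay below both WT libraries for Foxa1, Foxa2, Hnf4a and Gkn2 and above them for Sox2 and Lgals4. Thus 6 of the 9 showed no overlap, where 48.1% of all tested genes showed none (25.4% lower and 22.7% higher in KO). By mean over the 4 libraries the order was Nkx2-1, Foxa2, Sox9, Gkn2, Foxa1, Ctse, Lgals4, Hnf4a, Sox2 and Hmga2. The ranges of Nkx2-1 and Foxa2, of Foxa2 and Sox9, of Ctse and Lgals4, and of Sox2 and Hmga2 did not overlap. Sox9, Gkn2 and Foxa1 each overlapped the next in the order, as did Lgals4 with Hnf4a and Hnf4a with Sox2.

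**Figure D1:**
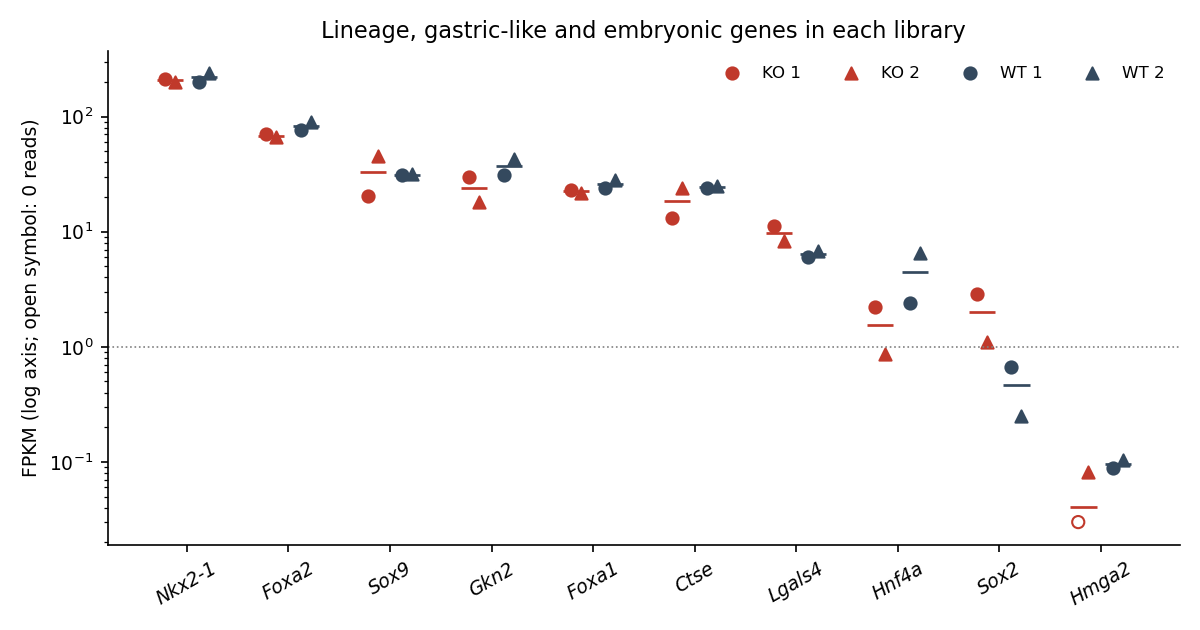
FPKM (log axis) of the 10 genes in each library, ordered by mean level; KO libraries are red and WT libraries dark blue, circles are number 1 and triangles number 2, short lines are group means, the dotted line is 1 FPKM and the open symbol is a library with 0 reads. Nkx2-1 lies between 198 and 238 FPKM in all 4 libraries, and Hmga2 reaches at most 0.104 FPKM.

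The lung lineage factors were expressed in tumours of both genotypes, Nkx2-1 most strongly and evenly. The mean levels of Foxa2 and Foxa1 exceeded those of 89.5% and 67.3% of the tested genes. Nkx2-1 (ENSMUSG00000001496, chromosome 12, 56531958 to 56536908, minus strand, mm10) had 214 and 198 FPKM in KO 1 and KO 2, against 201 and 238 FPKM in WT 1 and WT 2. The groups overlapped, and its mean level exceeded that of 96.9% of the tested genes. Its log2 fold change was -0.09 ± 0.13 (SE; limma adjusted p = 0.801), with a 95% interval of -0.41 to 0.24. The sign turned without WT 2 (0.04) and with libraries scaled to epithelial genes (0.05). An antisense gene at the locus, Gm26973, shared 0 exon bases with Nkx2-1 and stood at 36.7 to 52.9 FPKM.

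Foxa1 and Foxa2, pioneer factors that open chromatin at epithelial genes, were slightly lower in the KO libraries without passing the test. Foxa2 (ENSMUSG00000037025, chromosome 2, 148042877 to 148046969, minus strand) had 70.3 and 66.6 FPKM in KO 1 and KO 2, against 76.4 and 89.4 FPKM in WT 1 and WT 2. Its log2 fold change was -0.27 ± 0.12 (SE; limma adjusted p = 0.358). Foxa1 (ENSMUSG00000035451, chromosome 12, 57540628 to 57546916, minus strand) had 23.2 and 21.5 FPKM in the KO libraries, against 24.0 and 28.4 FPKM in the WT libraries. The groups did not overlap, although KO 1 and WT 1 were close, and the log2 fold change was -0.21 ± 0.12 (SE; limma adjusted p = 0.461). Without WT 2 it was -0.16 for Foxa2 and -0.10 for Foxa1, and without WT 1 it was -0.38 and -0.33. With libraries scaled to epithelial genes it was -0.14 for Foxa2 and -0.08 for Foxa1, where the median of all tested genes moved to 0.13.

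The proportions of the 3 factors to each other were close in every library, though each lay apart between the genotypes. Any 2 of these ratios fix the third, so they are not separate observations. Of single tested genes 48.1% also showed no overlap, and the share for ratios of genes was not computed. There was 3.03 and 3.09 times as much Foxa2 as Foxa1 in KO 1 and KO 2, against 3.19 and 3.15 times in WT 1 and WT 2. Nkx2-1 stood at 9.23 and 9.19 times the level of Foxa1 in the KO libraries, against 8.38 and 8.39 times in the WT libraries. Relative to Foxa2 it stood at 3.05 and 2.97 times in KO, against 2.63 and 2.66 times in WT. Over the 4 libraries the highest value exceeded the lowest by 1.20 times for Nkx2-1, 1.34 times for Foxa2 and 1.32 times for Foxa1. All 3 were highest in WT 2 and lowest in KO 2. Foxa3, the third FOXA gene and a factor of liver and gut, was at 5.01 and 4.88 FPKM in KO against 7.17 and 7.23 FPKM in WT (log2 fold change -0.46 ± 0.12, SE; limma adjusted p = 0.195).

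The promoters of Nkx2-1, Foxa1 and Foxa2 are printed from RefSeq (GRCm38.p6, the assembly of mm10). Each is 250 bases before and 50 after an annotated start, on the strand of the gene. Promoters were found for 8 of the 10 genes, without Sox9 and Ctse, and for Foxa2 the most upstream of its listed starts is shown. Capitals mark the forkhead motif TGTTTAC on either strand.
Nkx2-1, chr12:56536859-56537158, minus strand: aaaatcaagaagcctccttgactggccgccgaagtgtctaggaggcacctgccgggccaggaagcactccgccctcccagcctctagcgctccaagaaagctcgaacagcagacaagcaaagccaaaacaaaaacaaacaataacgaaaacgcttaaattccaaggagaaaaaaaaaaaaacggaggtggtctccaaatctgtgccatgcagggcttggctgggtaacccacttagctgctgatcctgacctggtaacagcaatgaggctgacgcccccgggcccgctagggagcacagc
Foxa1, chr12:57546062-57546361, minus strand: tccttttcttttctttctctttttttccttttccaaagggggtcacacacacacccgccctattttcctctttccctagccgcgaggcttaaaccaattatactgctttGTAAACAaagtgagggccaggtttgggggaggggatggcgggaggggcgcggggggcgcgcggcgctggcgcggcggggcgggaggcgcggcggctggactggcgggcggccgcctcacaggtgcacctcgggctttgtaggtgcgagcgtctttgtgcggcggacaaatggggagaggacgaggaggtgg
Foxa2, chr2:148046920-148047219, minus strand: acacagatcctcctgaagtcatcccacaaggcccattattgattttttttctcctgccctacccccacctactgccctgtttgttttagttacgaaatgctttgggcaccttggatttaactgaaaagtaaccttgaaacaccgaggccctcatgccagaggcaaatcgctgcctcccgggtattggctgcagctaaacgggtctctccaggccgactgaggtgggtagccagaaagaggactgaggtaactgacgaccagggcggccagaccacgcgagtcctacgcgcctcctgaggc
Of these, Foxa1 alone held the forkhead motif, on the reverse strand as GTAAACA, with its first base at position -141 from the start used. The whole Foxa1 window lies within the gene's span given above, which reaches 57546916, so this start is not its most upstream end. Of 32851 promoters of this length 3.65% held the forkhead motif. The letters CAAGTG (an NKX2 motif, in 13.6% of promoters), CAAAGTCCA (HNF4, 0.475%) and ACAATGG (SOX, 3.66%) were also sought on both strands and were in none of the 8 genes' promoters, nor did any other of these promoters hold the forkhead letters. Such matches describe the sequence only, and binding was not measured.

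Surfactant and other distal lung genes, many of which NKX2-1 and the FOXA factors are known to activate, were abundant in both genotypes. Of 15 distal lung and surfactant genes, all tested, 0 were called in either direction, 5 lay higher and 4 lower without overlap (22.7% and 25.4% over all tested genes), and the median log2 fold change was -0.00, as it was over all tested genes. Sftpc, the surfactant protein C gene, was at 90474 and 76027 FPKM in KO against 75159 and 77718 FPKM in WT. The largest differences without overlap were in the airway secretory genes Scgb1a1 (1.16 ± 0.43, SE) and Scgb3a2 (1.00 ± 0.29) and in Napsa, an aspartic protease that processes surfactant protein B (0.91 ± 0.30; limma adjusted p between 0.232 and 0.294).

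Among 18 other transcription factors of lung epithelium, 17 were tested and 0 were called. Both KO libraries lay below both WT libraries for 8 of them and above for 2, against 25.4% and 22.7% of all tested genes. Their median log2 fold change was -0.20, and -0.11 without WT 2. Cebpa, a factor of alveolar type 2 cells, was at 538 and 489 FPKM in KO against 505 and 580 FPKM in WT. Of the factors that lay lower, Foxa3, given above, had the largest difference (log2 fold change -0.46 ± 0.12, SE; limma adjusted p = 0.195). The largest difference in the list lay the other way, in Irx2, an Iroquois homeobox factor. It was at 27.1 and 17.7 FPKM in KO against 10.6 and 6.87 FPKM in WT (log2 fold change 1.26 ± 0.26, SE; limma adjusted p = 0.140). Foxj1, which drives motile cilia, was at 2.48 and 3.27 FPKM in KO against 2.04 and 1.37 FPKM in WT (0.52 ± 0.20, SE; limma adjusted p = 0.294).

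**Figure D2:**
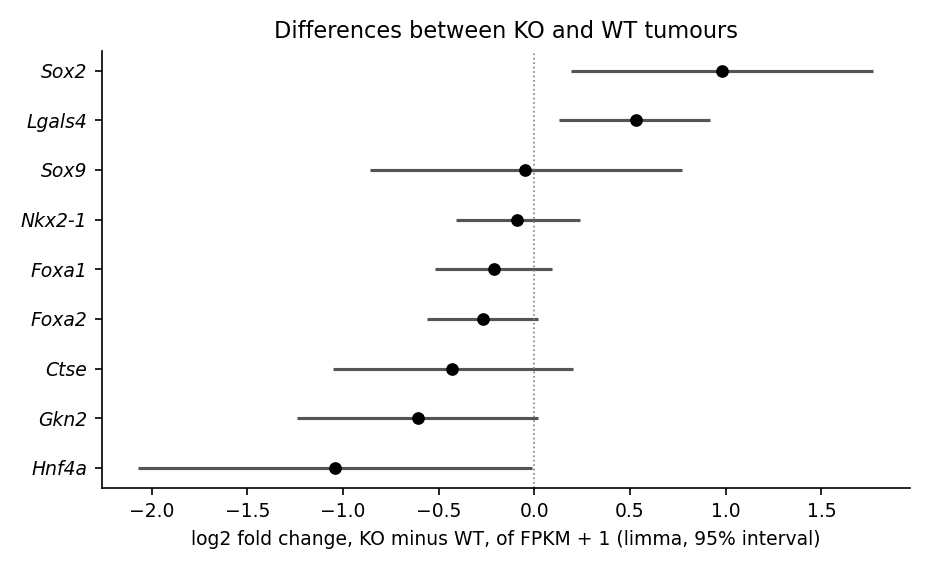
Log2 fold change (KO minus WT) of FPKM + 1 for the 9 genes that passed the filter, as points with limma's 95% intervals. Sox2 and Lgals4 lie at positive and Hnf4a at negative values with intervals that leave out 0 before adjustment, and none of the 9 was called after adjustment over 13147 genes. Sox2 passed the filter only through its KO libraries.

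Sox9, a factor of distal progenitors, differed far more between the KO libraries than between the genotype means. Sox9 (ENSMUSG00000000567, chromosome 11, 112782224 to 112787760, plus strand) had 20.3 and 45.2 FPKM in KO 1 and KO 2, against 31.4 and 31.4 FPKM in WT 1 and WT 2. The KO libraries thus held both the lowest and the highest value, on either side of nearly equal WT libraries. Its log2 fold change was -0.05 ± 0.33 (SE; limma adjusted p = 0.963), with 0.51 without KO 1 and -0.61 without KO 2. The reads behind these values were 1506 and 3155 in KO and 2808 and 2757 in WT. SOX9 is also made in cartilage, of whose 10 markers 7 were above 0, with Acan, Col9a1 and Ucma at 0 in all libraries. The markers summed to 2.22 and 1.97 FPKM in KO against 1.64 and 2.49 FPKM in WT. The part of cartilage in the Sox9 values was not tested.

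Sox2, the proximal airway factor, was low everywhere and higher in both KO libraries. Sox2 (ENSMUSG00000074637, chromosome 3, 34650405 to 34652461, plus strand) had 2.89 and 1.09 FPKM in KO 1 and KO 2, against 0.673 and 0.252 FPKM in WT 1 and WT 2. These were 107 and 38 reads against 30 and 11. Per read sequenced, Sox2 was 4.35 times as high in the KO libraries together (95% exact interval 3.06 to 6.31, which covers counting error only). The spread between libraries was larger, and the log2 fold change of 0.98 ± 0.32 (SE) did not pass the test (limma adjusted p = 0.259). It was 0.53 without KO 1 and 1.43 without KO 2. For so low a gene it depended on the scale, at 1.86 with a pseudocount of 0.1, 0.19 with one of 10 and 2.09 with limma-voom on recovered reads, and was called under none of these. Sox2ot, the long noncoding gene whose intron holds Sox2, shared 0 exon bases with it and is not reported here.

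Summed levels of airway markers were also higher in the KO libraries and lowest in WT 2, as Sox2 was. The abundant Scgb1a1 and Tppp3 weigh most in these sums, 0 of the markers were called, and Cyp2f2, Tmem212, Rsph1 and Tekt1 overlapped between the genotypes. The 6 club cell markers, all above 0 in at least 1 library, summed to 2162 and 3340 FPKM in KO 1 and KO 2, against 1823 and 796 FPKM in WT 1 and WT 2. The 8 ciliated cell markers summed to 48.3 and 60.1 FPKM in KO, against 40.0 and 24.9 FPKM in WT. Both sums were highest in KO 2, where Sox2 was second, and their part in the Sox2 values was not tested. Basal cell markers, which go with SOX2 in the trachea, summed to 0.383 and 0.651 FPKM in KO against 0.277 and 0.136 FPKM in WT, with Krt5 at 1 read in KO 2 and 0 reads elsewhere. There was 7.0 and 41.3 times as much Sox9 as Sox2 in the KO libraries, against 46.6 and 125 times in the WT libraries.

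Hmga2 was close to absent from tumours of both genotypes. Hmga2 (ENSMUSG00000056758, chromosome 10, 120361275 to 120476469, minus strand) had 0 and 0.0814 FPKM in KO 1 and KO 2, against 0.0889 and 0.104 FPKM in WT 1 and WT 2. These values stand for 0 and 5 reads in KO and 7 and 8 reads in WT. In KO 1 a count of 0 has an exact 95% upper limit of 0.0564 FPKM, where 3 reads would give 0.0459 FPKM. The ratio of KO to WT was 0.410 with a 95% exact interval of 0.117 to 1.19 for counting error, so a difference was not detectable at this depth. The antisense gene 1700006J14Rik shares 140 of the 6772 exon bases of Hmga2 and had 1 read or 0 in each library. Hmga1, the related gene on chromosome 17, was at 14.4 and 14.2 FPKM in KO against 15.3 and 19.6 FPKM in WT (log2 fold change -0.26 ± 0.14, SE; limma adjusted p = 0.436).

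Hmga2 is a well-known target of the let-7 microRNAs, which pair through their seed with its 3′ UTR, and LIN28 proteins of the embryo block the making of let-7. The seed (bases 2 to 8) of the mature mouse let-7a from RefSeq is shown in capitals, and the pairing letters CTACCTC in capitals in the 4 matches found in the 3′ UTR of an Hmga2 transcript (3014 bases, GENCODE vM21, GRCm38, minus strand), written 5′ to 3′.
mmu-let-7a-5p, chr13:48538239-48538260, minus strand: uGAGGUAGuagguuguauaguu
Hmga2 site 1, chr10:120364224-120364246: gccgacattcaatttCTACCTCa
Hmga2 site 2, chr10:120362987-120363009: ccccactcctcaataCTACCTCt
Hmga2 site 3, chr10:120362549-120362571: ctgatttgcaaggaaCTACCTCc
Hmga2 site 4, chr10:120361691-120361713: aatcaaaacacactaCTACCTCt
At least 1 match was present in the longest 3′ UTR of 9.11% of 20831 genes, and 4 or more in 12 genes (0.0576%). MicroRNAs were not measured in these libraries. Lin28b was at 0 in every library, and Lin28a had 0 and 0 reads in KO against 1 and 1 in WT.

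Other genes of the embryo and of oncofetal tumours were measured alongside. Of 18 such genes 8 were tested and 0 called, 2 lay higher and 4 lower in KO without overlap (22.7% and 25.4% over all tested genes), and the median log2 fold change was -0.21, or -0.35 without WT 1. Dlk1, a membrane ligand of the Notch family that is imprinted and fetal, was the highest of them, at 134 and 102 FPKM in KO against 161 and 352 FPKM in WT (-1.02 ± 0.36, SE; limma adjusted p = 0.273). Afp, the alpha-fetoprotein gene, was at 5.09 and 3.77 FPKM in KO against 8.85 and 8.20 FPKM in WT (-0.82 ± 0.16, SE; limma adjusted p = 0.136). Igf2, a fetal growth factor, lay the other way, at 2.75 and 2.40 FPKM in KO against 1.06 and 1.13 FPKM in WT (0.77 ± 0.16, SE; limma adjusted p = 0.140). The oncofetal RNA-binding genes Igf2bp1 and Igf2bp3, named after their values were seen, had between 0 and 12 reads in any library.

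Hnf4a, the nuclear receptor of liver and gut, was low in 3 libraries and highest in WT 2. Hnf4a (ENSMUSG00000017950, chromosome 2, 163506808 to 163572910, plus strand) had 2.23 and 0.874 FPKM in KO 1 and KO 2, against 2.40 and 6.53 FPKM in WT 1 and WT 2. KO 1 and WT 1 were nearly equal, and the groups did not overlap by a narrow margin. The smallest whole reads that give these values were 84 and 31 in KO and 109 and 291 in WT. Its log2 fold change of -1.04 ± 0.42 (SE) was larger in size than that of 98.7% of tested genes and did not pass the test (limma adjusted p = 0.320). It was -0.47 without WT 2 and -0.65 without KO 2, but -1.61 without WT 1 and -1.43 without KO 1. It stood at 0.0104 and 0.00442 times the level of Nkx2-1 in the KO libraries, against 0.0119 and 0.0274 times in the WT libraries.

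The genes whose profile over the 4 libraries was nearest to that of Hnf4a were Mettl7b, Dlk1 and Padi4, with root mean square distances of 0.12, 0.14 and 0.17 on the centred log2(FPKM + 1) scale. With 4 libraries such likeness is a description only. Mettl7b (chromosome 10, 128958274 to 128960988) was at 2.13 and 0.482 FPKM in KO against 2.30 and 5.49 FPKM in WT. Padi4 (chromosome 4, 140745865 to 140774236), a peptidylarginine deiminase, was at 6.82 and 2.75 FPKM in KO against 8.46 and 17.7 FPKM in WT. Each of the 3 was highest in WT 2 and lowest in KO 2, like Hnf4a, which follows from how they were chosen.

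Of 17 intestinal and hepatic genes, 5 were tested and 0 called, with 3 lower in KO without overlap, as 25.4% of all tested genes were. The median log2 fold change was -0.08, but -0.57 without KO 1 and -0.35 without KO 2. Vil1, which encodes villin of the brush border, was at 2.66 and 2.30 FPKM in KO against 3.26 and 9.62 FPKM in WT (-0.95 ± 0.40, SE; limma adjusted p = 0.337), and was thus highest in the library where Hnf4a was. Tspan8, a tetraspanin, was at 108 and 87.3 FPKM in KO against 125 and 153 FPKM in WT (-0.50 ± 0.16, SE; limma adjusted p = 0.246). Cdx1 and Cdx2, the intestinal homeobox factors, were at 0 in every library, and Hnf4g had at most 1 read.

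**Figure D3:**
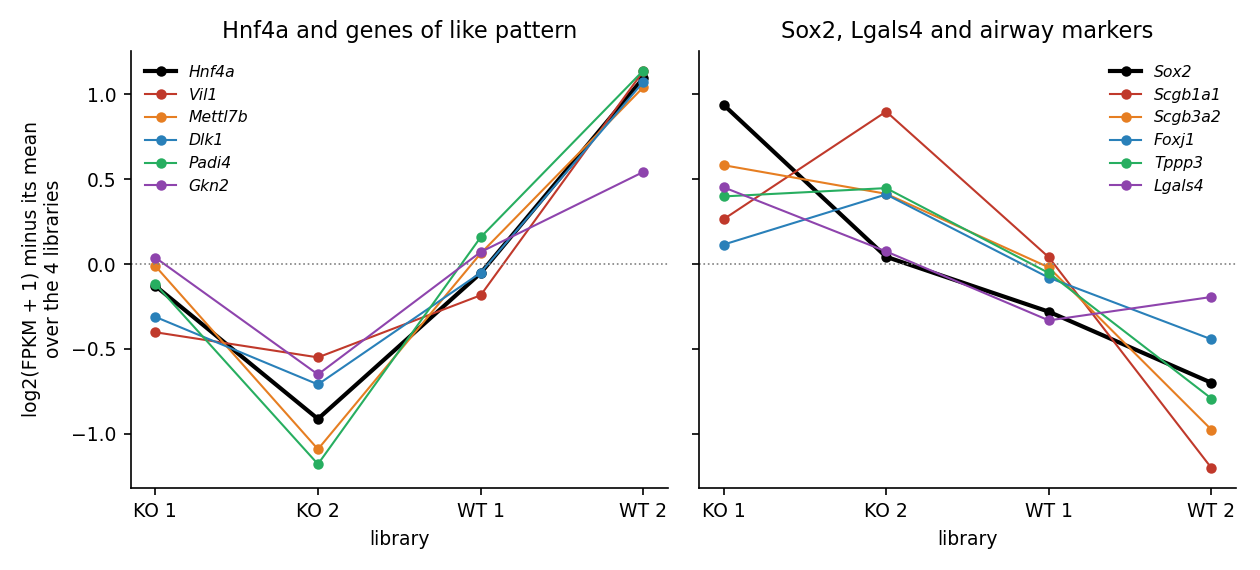
Log2(FPKM + 1) of each gene minus its mean over the 4 libraries, for Hnf4a with Vil1, Gkn2 and the 3 genes of nearest profile (left) and for Sox2 with Lgals4 and markers of club and ciliated cells (right); lines join the values of 1 gene. On the left WT 2 is highest and KO 2 lowest for all 6 genes, of which 3 were chosen for their likeness to Hnf4a. On the right WT 2 is lowest for Sox2 and the 4 airway markers.

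Gkn2, Ctse and Lgals4 were expressed in every tumour library, and none of the 3 passed the test. Gkn2 (ENSMUSG00000030049, chromosome 6, 87373357 to 87379497, plus strand), which encodes gastrokine 2, a secreted protein of the stomach surface, had 30.1 and 18.3 FPKM in KO 1 and KO 2, against 30.8 and 43.1 FPKM in WT 1 and WT 2. Values of KO 1 and WT 1 were close, and the outer libraries set the difference. Its log2 fold change was -0.61 ± 0.26 (SE; limma adjusted p = 0.337), and it was -0.27 without KO 2 and -0.38 without WT 2, but -0.96 without KO 1 and -0.85 without WT 1.

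Ctse (ENSMUSG00000004552, chromosome 1, 131638306 to 131675505, plus strand), which encodes cathepsin E, an aspartic protease of gastric epithelium and some immune cells, had 13.2 and 24.0 FPKM in KO, against 23.9 and 24.8 FPKM in WT. KO 1 alone was low, KO 2 lay between the WT libraries, and the log2 fold change of -0.43 ± 0.26 (SE; limma adjusted p = 0.472) was -0.02 without KO 1 and -0.84 without KO 2. Lgals4 (ENSMUSG00000053964, chromosome 7, 28833854 to 28841708, plus strand), which encodes galectin-4 of the digestive tract, had 11.1 and 8.32 FPKM in KO, against 6.03 and 6.74 FPKM in WT. Both KO libraries were higher, and the log2 fold change was 0.53 ± 0.16 (SE), with the lowest adjusted p of the 9 tested genes (limma adjusted p = 0.245). It was 0.34 without KO 1. Hnf4a and Lgals4 thus lay in opposite directions, and the level of Lgals4 was 4.99 and 9.52 times that of Hnf4a in KO, against 2.52 and 1.03 times in WT.

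Most other stomach genes were at or near 0. Of 17 other gastric genes 14 were above 0 in some library, 3 reached the filter and 0 were called, and all 3 were lower in KO without overlap, as 25.4% of all tested genes were. Muc1, a membrane mucin that lung epithelium also makes, was at 819 and 658 FPKM in KO against 939 and 974 FPKM in WT (-0.38 ± 0.17, SE; limma adjusted p = 0.358). Vsig1, a junction protein of gastric epithelium, was at 1.92 and 2.37 FPKM in KO against 4.07 and 4.27 FPKM in WT (-0.72 ± 0.15, SE; limma adjusted p = 0.147). Muc5ac, a gel-forming mucin of stomach and airway, was at 1.19 and 0.833 FPKM in KO against 2.31 and 1.65 FPKM in WT (-0.57 ± 0.19, SE; limma adjusted p = 0.266). Pdx1, Tff3 and Cym were at 0 in every library. The relatives of Gkn2 were scarce, with 1 read of Gkn1 in WT 1 and 0 elsewhere, and Gkn3 at 0.857 and 0.491 FPKM in KO against 0.875 and 0.391 FPKM in WT.

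**Figure D4:**
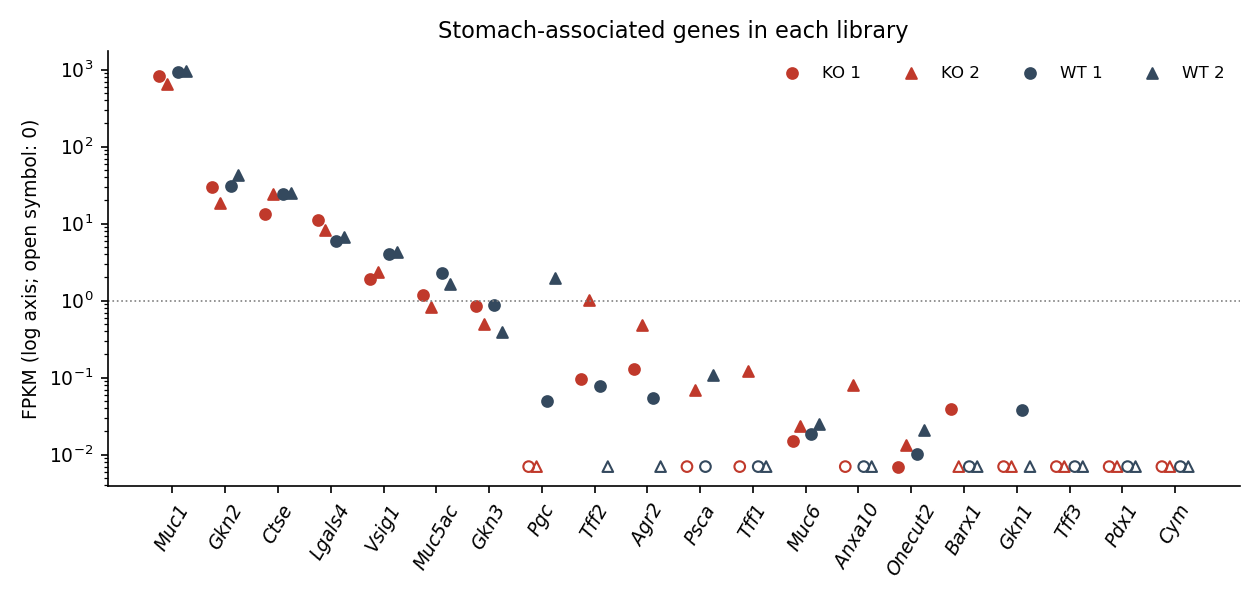
FPKM (log axis) of Gkn2, Ctse, Lgals4 and 17 other stomach-associated genes in each library, ordered by mean level; KO libraries are red, WT libraries dark blue, circles are number 1 and triangles number 2, open symbols stand for 0 and the dotted line is 1 FPKM. Muc1, Gkn2, Ctse and Lgals4 lie above 6 FPKM in every library, and most of the others lie below 1 FPKM.

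Genes of dedifferentiation outside the 10 showed no single direction. Of 10 genes of plastic and dedifferentiated tumour cells, all tested, 0 were called, 1 lay higher and 4 lower in KO without overlap (22.7% and 25.4% over all tested genes), and the median log2 fold change was -0.10, with -0.04 without KO 1 and -0.17 without WT 1. The keratin gene Krt7 was at 211 and 148 FPKM in KO against 224 and 274 FPKM in WT (-0.49 ± 0.20, SE; limma adjusted p = 0.323), and Itga2, an integrin chain, was at 8.15 and 8.99 FPKM against 14.7 and 10.7 FPKM (-0.51 ± 0.17, SE; limma adjusted p = 0.259). Ly6a, a surface protein that immune and endothelial cells also carry, lay the other way, at 56.8 and 61.5 FPKM in KO against 44.9 and 31.4 FPKM in WT (0.64 ± 0.18, SE; limma adjusted p = 0.210).

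Of 9 regulators and markers of mesenchymal transition 5 were tested, and all 5 lay higher in KO without overlap, as 22.7% of all tested genes did, with 0 calls. The median log2 fold change was 0.51, and 0.33 without WT 2. They included Zeb1 (0.71 ± 0.19, SE), Vim (0.54 ± 0.20) and Snai1 (0.51 ± 0.17; limma adjusted p between 0.200 and 0.281). Of the genes too low to be tested, Snai2 also lay higher in KO, while Cdh2, Twist1 and Twist2 overlapped. Several stromal cell types also make these RNAs. Fibroblast markers, all 6 above 0, summed to 324 and 530 FPKM in KO against 331 and 225 FPKM in WT, and endothelial markers, all 6 above 0, to 108 and 176 FPKM against 130 and 68.0 FPKM, so that both overlapped. Smooth muscle markers summed to 66.0 and 89.2 FPKM in KO against 55.2 and 46.8 FPKM in WT, and mesothelial markers to 8.97 and 12.0 FPKM against 1.86 and 5.90 FPKM, without overlap. The part of these cells in the mesenchymal genes was not tested. Among 22 close paralogues of the 10 genes, 7 were tested and 0 called, with 2 higher and 2 lower in KO without overlap (22.7% and 25.4% over all tested genes). Lgals1, which encodes galectin-1, had the largest difference among them, at 65.2 and 65.9 FPKM in KO against 42.0 and 50.7 FPKM in WT (0.50 ± 0.12, SE; limma adjusted p = 0.185).

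**Figure D5:**
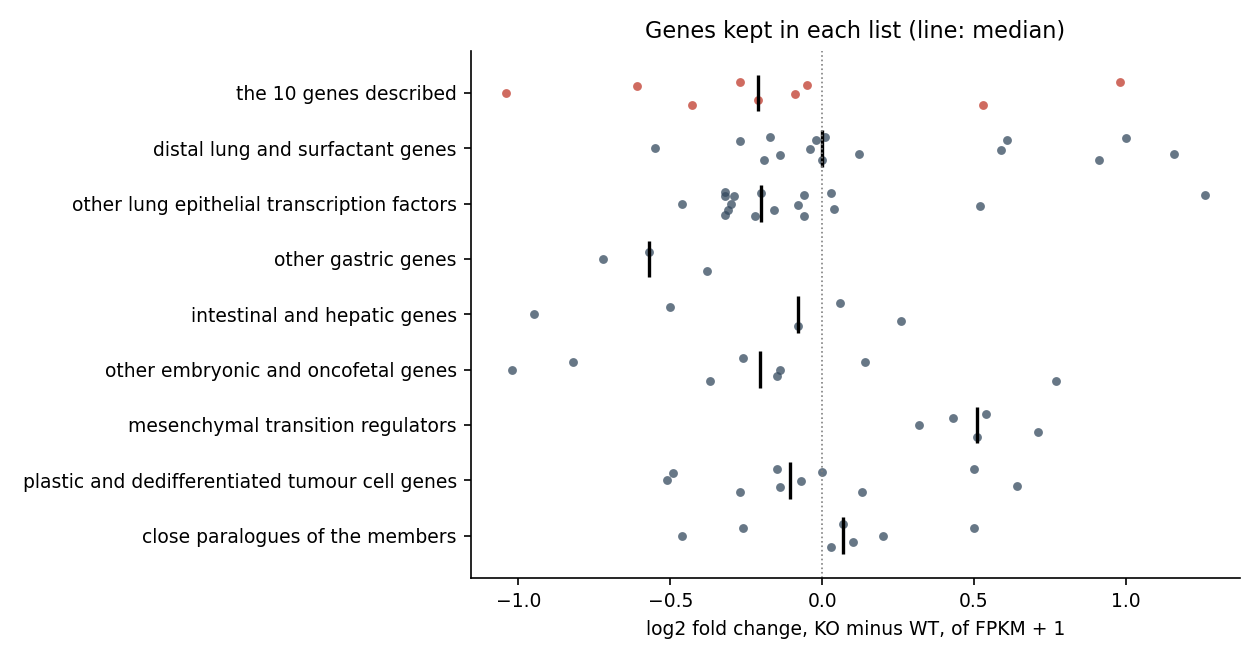
Log2 fold change (KO minus WT) of FPKM + 1 for the tested genes of each list, 1 point per gene, with the list median as a black line; the 10 genes described are in red. Medians run from -0.57 for the 3 tested gastric genes to 0.51 for the 5 tested regulators and markers of mesenchymal transition, and no gene of these lists was called.

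Single libraries held many of the extreme values of the 10 genes. WT 2 held the highest value of 7 of them, where 21.6% of tested genes were highest, and KO 2 the lowest of 5, where 21.3% of tested genes were lowest. The 7 include the untested Hmga2, with 8 reads in WT 2 against 7 in WT 1. They also include Ctse, at 24.8 FPKM in WT 2 against 24.0 FPKM in KO 2. The 9 epithelial genes, among them Epcam and Cdh1, summed to 1396 and 1379 FPKM in KO 1 and KO 2, against 1493 and 1679 FPKM in WT 1 and WT 2. The sum was thus also highest in WT 2, while Cdh1 and Esrp1 were highest in WT 1 and Cldn4 in KO 2. Markers of some immune cells lay the other way, with 5 neutrophil markers at sums of 96.2 and 111 FPKM in KO against 25.3 and 27.1 FPKM in WT, and 6 T cell markers at 23.5 and 27.5 FPKM against 11.4 and 9.57 FPKM. Macrophage markers overlapped, at 146 and 132 FPKM in KO against 166 and 142 FPKM in WT. When each library was shifted to an equal mean of the epithelial genes, the median of all tested genes moved to 0.13 and 856 genes were called, 739 of them higher. Limma's prior degrees of freedom were infinite in that fit, so that all genes shared the spread set by the trend. Sox2 (1.11, limma adjusted p = 0.00144), Lgals4 (0.66, 0.0493) and Hnf4a (-0.91, 0.00854) were called there, and the other 6 tested genes were not. Sox2 passed the filter only through its KO libraries, so it had to differ to be tested.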

How the data were processed

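The authors deposited 1 table of FPKM values, as the values themselves show: for every gene above 0 (21601 of 35275), whole reads were recovered at some gene length, within 0.0002 reads, rounding aside. Where that length was not annotated the smallest that fitted was used, so reads could be undercounted; for Hnf4a and Lgals4 a doubled length would also lie within the annotated exons. Per the submitters' processing notes, the build was mm10 and the tools included TopHat2 and DESeq2. What each did, the counter, annotation, filters and strand use are not given here. Symbols and coordinates were from GENCODE vM21 (GRCm38), which matched 34490 identifiers.

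KO was set against WT in R 4.3.3 by limma 3.58.1, fitted to log2(FPKM + 1) with its trend option and Benjamini-Hochberg adjustment over 13147 genes (at least 1 FPKM in 2 or more libraries). Residual and prior degrees of freedom were 2 and 4.12. The fit was tested on simulated data. Fold changes understate the change of low genes. The median depth of tested genes was 507 reads. Tables were handled in Python 3.11.15.

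The genes and lists were chosen with earlier results of these data known. Outside the 10 genes, each list was represented by up to 3 tested genes of largest fold change whose groups did not overlap (1 such gene is not reported here), and a few genes were named for being at or near 0 or as well-known members, after their values were seen. The profile comparison used Hnf4a, the tested gene of the 10 with the largest fold change and no overlap. The design names 2 mice of each genotype, while each library pooled tumours, and p-values measure only the spread between these 4 libraries. Alternatives were quantile and epithelial scaling, no trend, other filters and pseudocounts, limma-voom, the replicate number as a block and leaving out each library.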

Additional observations from a re-analysis of the deposited data

How the results depend on the processing

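The number of called genes, 15, was 856 with epithelial scaling, 1 with no filter, 8 with limma-voom on recovered reads, and 10 to 221 with single libraries left out. As a replicate block, the shared numbers gave 69 calls and called 0 of the 10 genes. Same-numbered libraries deviated in opposite directions (correlation -0.306). With 2 libraries per genotype, KO 1 and WT 2 give the same value with the sign turned (0.306) by construction. The correlation therefore cannot show whether the samples were paired. A crossed pairing, added after seeing the data, gave 848 calls, 3 of them among the 10 genes.

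Epithelial scaling called Sox2 (1.11), Hnf4a (-0.91) and Lgals4 (0.66), of which Sox2 was tested only because of its KO levels. This scaling turned Nkx2-1 to 0.05 and Sox9 to 0.08. Leaving out 1 library gave -0.21 to 0.04 for Nkx2-1 and -0.61 to 0.51 for Sox9. Hmga2, with no test and -0.08 in log2 fold change, was at 0.06 with epithelial scaling, at -0.54 with a pseudocount of 0.1 and at -0.01 with one of 10, on 0 to 8 reads per library. Hnf4a was at -1.43 and -0.31 with these pseudocounts and at -1.47 with limma-voom. No other alternative from the plan called any of the 10 genes or turned a sign. Of 104 list medians under alternatives, 26 moved by more than the spread between libraries, and epithelial scaling turned those of the intestinal (0.06) and plastic (0.03) lists. The gastric median lay between -0.97 with limma-voom and -0.01 with no filter. Depth limits Hmga2 and, less so, Sox2.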

Other observations

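Several genes of the gastric, hepatic and airway lists had 1 library well above the rest, and are given as values chosen after they were seen. Pgc, which encodes a gastric pepsinogen, had 0 and 0 reads in KO 1 and KO 2, against 1 and 39 in WT 1 and WT 2. Tff2, a trefoil peptide of the stomach, had 1 and 10 reads in KO, against 1 and 0 in WT. Apob, the apolipoprotein B gene, was at 0.240 and 5.98 FPKM in KO, against 1.03 and 2.00 FPKM in WT. Scgb3a1, an airway secretory gene, was at 16.7 and 91.2 FPKM in KO, against 10.7 and 5.01 FPKM in WT (limma adjusted p = 0.256). Bpifa1, another, was at 20.9 and 53.2 FPKM in KO, against 10.3 and 6.92 FPKM in WT (limma adjusted p = 0.162). Both of these airway genes were highest in KO 2, but KO 1 also lay above both WT libraries. Such lack of overlap, with KO higher, was seen for 22.7% of all tested genes.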
